A study of Mus musculus with 4 samples.

Results

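A set of 44 genes for the transport of ions, water and nutrients in the alveolar epithelium was described in cultured mouse alveolar type II cells. The set was chosen by name among the 28096 Entrez gene identifiers that each library reports, and all 44 genes were measured. It holds the sodium channel and its ubiquitin ligase, chloride and anion channels, cation pumps, bicarbonate carriers and carbonic anhydrases, potassium channels, sensors of stretch and nucleotides, water channels, and carriers of peptides, choline, amino acids, metals and phosphate. The grouping by role is a textbook one and used no measured value.

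The study sequenced polyadenylated RNA of alveolar type II cells that had been sorted from mouse lung by EpCAM on the surface and by the absence of CD24, CD45, CD31 and podoplanin. Four-hydroxytamoxifen (4OHT), the ligand that switches on the Cre recombinase fusion CreERT2, was given at 100 nM for 4 days to cells embedded in matrigel in BEGM, a bronchial epithelial growth medium, and RNA was taken after 1 further day without it. The 4 libraries carry the single genotype label KRasEtv wt. The series names 3 genotypes with 4 mice each, which all carry RosaCreERT2, a Cre driven from the ubiquitous Rosa locus, and which differ in having no Etv allele listed, Etv5 loxp/loxp, or Etv4 KO/KO with Etv5 loxp/loxp. The labels do not say which of these KRasEtv wt stands for, and they give neither the age nor the sex of the mice. Since there is 1 group, no contrast between conditions exists, and levels, differences between related genes and the spread between libraries are described.

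The alveolar epithelium keeps the airspace nearly dry. Sodium enters type II cells from the airspace through the epithelial sodium channel ENaC, the sodium-potassium ATPase moves it out on the other side, and water follows, while chloride channels and chloride loaders set how much liquid stays on the surface. Type II cells also import choline, amino acids and phosphate for surfactant, the lipid and protein film that they secrete.

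The labels number no replicates, so libraries 1 to 4 are named in accession order, and the labels tie no library to a mouse. Xist, a noncoding RNA by which female cells silence an X chromosome, had 0.293, 0.255, 66.3 and 0.784 nRPKM in libraries 1 to 4, which sets library 3 apart from the others. Whether libraries 1, 2 and 4 came from separate mice is not given, so part of the spread behind the p-values may be technical. Library totals were 12133251 to 13591876 counted reads. Levels are nRPKM, the authors' RPKM adjusted by size factors, which is a level per gene length. Averaged over the libraries, each of the 20 type II markers listed reached 10 nRPKM, and their sum was 12193, 19816, 25409 and 19538 nRPKM in libraries 1 to 4, so library 1 was lowest. Type I markers reached 1 nRPKM for 14 of 17 and summed to 782 to 1000.2. Club cell markers reached it for 8 of 9 and ciliated markers for 4 of 12, with sums of 248 to 1146 and of 33.4 to 54.0. Leukocyte markers reached it for 10 of 18 (sum 53.6 to 110.2; Nkg7 among those at 0 reads), endothelial markers for 2 of 14 (14.05 to 22.6; Erg at 0 reads) and mesenchymal markers for 7 of 14 (508 to 676). Mesothelial markers reached it for 2 of 6 (11.7 to 39.9, with Upk3b at 0 reads) and erythroid markers for 1 of 7 (0.731 to 1.80). Neuroendocrine and ionocyte markers did so for 3 of 10 (5.40 to 14.2, with Foxi1 at 0 reads). Most of the mesenchymal sum was Sparc (429 to 553), followed by Mgp (38.9 to 191). The other mesenchymal markers each had a mean of at most 5.52 nRPKM.

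Most transport genes were expressed. The mean of the 4 libraries reached 1 nRPKM for 39 of 44, against 42.4% of all 28096 genes, and 10 nRPKM for 24, against 13.9% of all genes. At least 100 nRPKM was reached by 2, Atp1b1 and Slc26a9, against 0.826% of all genes. In every library more than 3 reads, the number that a count of 0 allows, were counted for 43 of 44, against 52.2% of all genes, and Aqp1 was the exception. The 44 genes took 0.596% to 0.790% of the reads of a library. Atp1b1 ranked first of the 44 in all 4 libraries. Ordered by mean level, the libraries of 40 of the 43 neighbouring pairs overlapped, so the order is coarse. The 3 steps without overlap lay below Atp1b1, between Atp2a2 and Atp1b3, and above Aqp1.

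**Figure D1:**
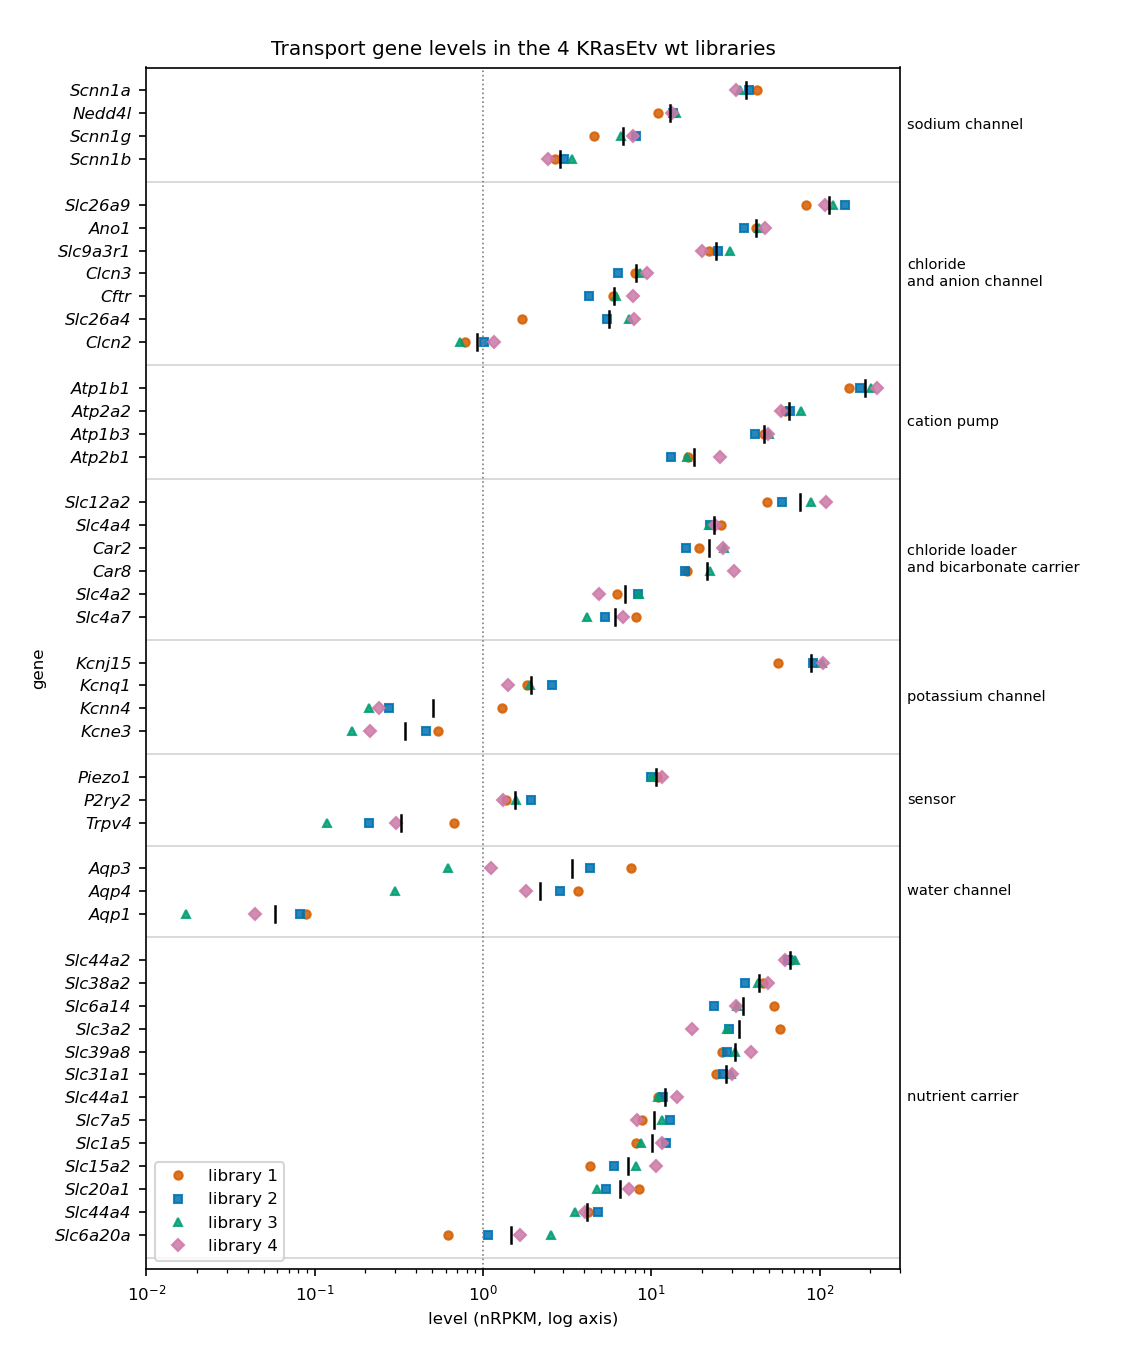
Level of each transport gene (nRPKM, horizontal log axis) in libraries 1 to 4 (symbols), grouped by role, with the mean of the 4 libraries as a black bar and a dotted line at 1 nRPKM. Atp1b1 and Slc26a9 lie highest, Aqp1 lies lowest, and the symbols of Aqp3 and Aqp4 lie far apart.

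Promoter sequences were taken for 4 genes that the results below turn on, to show what kind of start each has. They are the gene with the highest level (Atp1b1), the highest anion carrier (Slc26a9), an amino acid carrier subunit that was uneven between libraries (Slc3a2) and the water channel with the largest spread (Aqp3). Each is 300 bases of RefSeq GRCm38.p6, 250 before and 50 after the annotated start, on the gene's strand. Capitals mark GGAAGT, the core that ETS factors such as Etv5 are known to bind, and TATAAA, a form of the TATA box, on either strand. Only these exact letters were searched, so variants of either motif are not marked. No binding was measured in this study. The Atp1b1 promoter (chr1:164458306-164458605, minus strand) holds neither exact string, but it holds the similar letters tatata. Slc26a9 (chr1:131743772-131744071, plus strand) holds 2 matches of GGAAGT and 2 overlapping matches of TATAAA. Slc3a2 (chr19:8713848-8714147, minus strand) holds 1 GGAAGT, and Aqp3 (chr4:41098134-41098433, minus strand) holds 1 TATAAA.
Atp1b1: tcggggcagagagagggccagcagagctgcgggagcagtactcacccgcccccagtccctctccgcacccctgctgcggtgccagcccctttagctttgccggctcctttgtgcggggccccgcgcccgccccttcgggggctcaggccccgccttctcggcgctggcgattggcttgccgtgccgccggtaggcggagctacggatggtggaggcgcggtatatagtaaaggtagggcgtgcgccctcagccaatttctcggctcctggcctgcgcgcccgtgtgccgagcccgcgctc
Slc26a9: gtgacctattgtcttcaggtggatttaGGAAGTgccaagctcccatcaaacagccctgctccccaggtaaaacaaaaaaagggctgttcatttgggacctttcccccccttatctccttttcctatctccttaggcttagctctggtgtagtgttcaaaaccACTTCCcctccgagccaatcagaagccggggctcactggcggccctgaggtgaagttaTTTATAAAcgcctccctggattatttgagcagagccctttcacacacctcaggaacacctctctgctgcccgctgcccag
Slc3a2: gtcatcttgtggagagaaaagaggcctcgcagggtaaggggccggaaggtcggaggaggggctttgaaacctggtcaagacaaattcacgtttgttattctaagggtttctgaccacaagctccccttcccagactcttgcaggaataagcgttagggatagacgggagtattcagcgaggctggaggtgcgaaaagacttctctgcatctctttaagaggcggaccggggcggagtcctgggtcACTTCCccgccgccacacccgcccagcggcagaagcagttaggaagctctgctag
Aqp3: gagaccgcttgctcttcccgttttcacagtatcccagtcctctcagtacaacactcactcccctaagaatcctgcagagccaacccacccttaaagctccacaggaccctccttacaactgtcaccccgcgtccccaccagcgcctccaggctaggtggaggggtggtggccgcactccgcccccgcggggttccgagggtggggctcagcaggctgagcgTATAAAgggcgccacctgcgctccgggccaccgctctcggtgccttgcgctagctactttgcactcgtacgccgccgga

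RefSeq promoters were matched for 34 of the 44 genes. GGAAGT on either strand was found in 9 of 34 (26.5%), beside 26.5% of 27025 genes with promoters of that length. TATAAA was found in 7 of 34 (20.6%), beside 15.7% of all. The letters were therefore about as common in the transport set as in all promoters, and a match is only a match of letters.

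The sodium channel was expressed with unequal subunit levels. Scnn1a, the pore-forming alpha subunit of ENaC, had 42.6, 37.9, 33.6 and 31.9 nRPKM in libraries 1 to 4 (mean 36.5 ± 4.76, SD, n = 4). Scnn1g, the gamma subunit, had 4.57, 8.07, 6.60 and 7.76 (6.75 ± 1.59). Scnn1b, the beta subunit, had 2.67, 3.02, 3.39 and 2.45 (2.88 ± 0.413). Alpha thus lay above gamma and gamma above beta in each library, and the ranges of the 3 subunits did not overlap. The ratio of Scnn1a to Scnn1b was 12.9 ± 2.47, and that of Scnn1a to Scnn1g was 5.81 ± 2.38, from 4.11 to 9.32. Library 1 had the highest Scnn1a and the lowest Scnn1g, which gave it the ratio of 9.32. Nedd4l, the ubiquitin ligase that takes ENaC off the membrane, was even at 10.9, 13.5, 13.9 and 13.2 nRPKM (12.9 ± 1.32).

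Differences between related genes were tested within libraries on log2(nRPKM + 1), which understates differences of low genes, with a two-sided exact sign-flip permutation test over the 4 libraries. Of 22 pairs, 19 had the same direction in 4 of 4 libraries. Each of these 19 had p = 0.125 in that exact permutation test, the smallest that 4 libraries allow, and an adjusted p of 0.145 over the 22 pairs. Scnn1a exceeded Scnn1b by 3.27 ± 0.24 and Scnn1g by 2.29 ± 0.47 log2 units (SD, n = 4). Scnn1b minus Scnn1g was -0.98 ± 0.34.

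**Figure D2:**
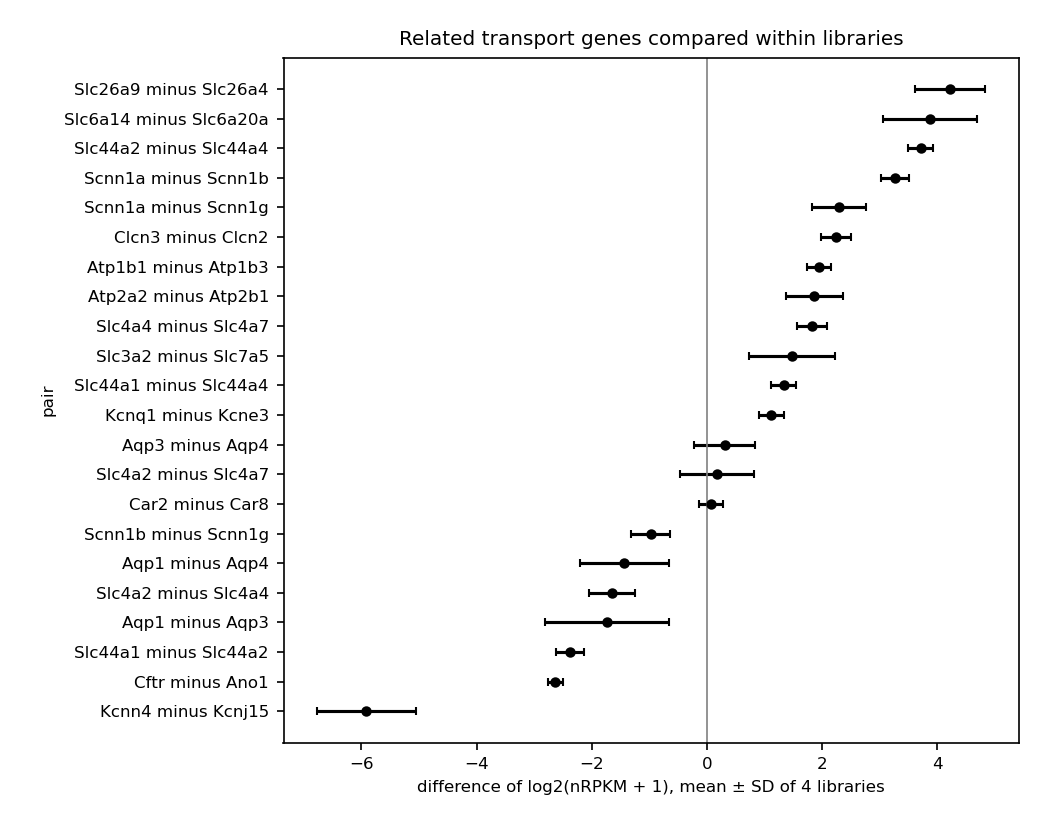
Difference of log2(nRPKM + 1) between 2 related transport genes of a library (horizontal axis), as the mean (point) and SD (bar) of 4 libraries, for 22 pairs. The 3 pairs whose bars cross 0 are Aqp3 with Aqp4, Slc4a2 with Slc4a7, and Car2 with Car8.

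Of the 7 chloride and anion genes of the set, the highest levels were those of Slc26a9 and Ano1 rather than Cftr. Slc26a9, an epithelial chloride carrier, had 82.8, 142, 120.3 and 107 nRPKM (113 ± 24.8), lowest in library 1. Ano1, the calcium-activated chloride channel TMEM16A, had 41.7, 35.5, 43.5 and 47.6 (42.1 ± 5.02). Cftr, the chloride channel that opens with cyclic AMP and is defective in cystic fibrosis, had 5.94, 4.25, 6.14 and 7.76 (6.02 ± 1.43). Ano1 and Cftr shared their lowest library, 2, and their highest, 4, and Cftr minus Ano1 was -2.63 ± 0.13 log2 units, the narrowest SD of the 22 differences. Slc9a3r1 (NHERF1), the scaffold that holds Cftr at the apical membrane, had 22.0, 25.0, 29.5 and 20.1 nRPKM (24.1 ± 4.08).

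Clcn3, a chloride-proton exchanger of endosomes, had 8.04, 6.35, 8.58 and 9.41 nRPKM (8.10 ± 1.29). Clcn2, a chloride channel of the cell surface, had 0.781, 1.02, 0.734 and 1.16 (0.924 ± 0.202), from 56 to 69 reads. Clcn3 was 9.08 ± 2.41 times as high as Clcn2. Slc26a4 (pendrin), which exchanges chloride for bicarbonate or iodide, had 1.70, 5.44, 7.34 and 7.84 nRPKM (5.58 ± 2.79), so library 1 lay far below the other three. The ratio of Slc26a9 to Slc26a4 accordingly ran from 13.7 to 48.6, with its highest value in library 1.

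All 4 pump genes reached 10 nRPKM. Atp1b1 and Atp1b3 encode beta subunits, which carry the sodium-potassium ATPase to the membrane. Atp1b1 had 149, 173, 201 and 219 nRPKM (186 ± 30.8), above 99.6% of all genes, and Atp1b3 had 46.6, 41.5, 49.8 and 49.6 (46.9 ± 3.85). Their ratio was 3.96 ± 0.530, and the lowest Atp1b1 lay well above the highest Atp1b3. Atp2a2 (SERCA2), the calcium pump of the endoplasmic reticulum, had 62.3, 66.2, 77.2 and 58.5 nRPKM (66.1 ± 8.04). Atp2b1, a calcium pump of the plasma membrane, had 16.6, 13.04, 16.4 and 25.4 (17.9 ± 5.30), and was highest in library 4, where Atp2a2 was lowest.

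The sequence of some genes is not theirs alone, which makes their levels uncertain. In GENCODE vM21, 22.3% of the exon bases of the longest coding transcript of Atp1b1 overlap another gene, mainly Nme7 on the opposite strand, and strand use in counting is not given in the sources used here. Over 10% overlap was also found for Piezo1 (17.1%, with Ctu2), Slc20a1 (16.4%), Slc4a2 (16.3%, with Fastk) and Slc6a20a (15.02%). Of the 50-base words of these transcripts, over 10% also occur in another gene for the same 5 genes and for Atp1b3 (11.7%). The share was 28.5% for Slc6a20a, mainly in its paralog Slc6a20b. Words were searched on both strands. For Atp1b1, Piezo1, Slc20a1 and Slc4a2, the gene sharing most words was the one overlapping on the opposite strand, so both shares count that overlap. No word was shared for 24 of the 44 genes.

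Chloride loading and bicarbonate transport were led by Slc12a2 (NKCC1), which brings sodium, potassium and chloride into the cell from the blood side. It had 48.9, 60.1, 88.4 and 108 nRPKM (76.4 ± 27.01), with libraries 3 and 4 above libraries 1 and 2. Slc4a4 (NBCe1), a sodium-bicarbonate cotransporter, was even at 26.1, 22.3, 22.2 and 24.0 (23.6 ± 1.82). Slc4a2 (AE2), a chloride-bicarbonate exchanger, had 6.22, 8.39, 8.47 and 4.90 (6.996 ± 1.74), and Slc4a4 lay above it in 4 of 4 libraries. Slc4a7 (NBCn1), another sodium-bicarbonate cotransporter, had 8.13, 5.32, 4.13 and 6.77 (6.09 ± 1.74) and was high where Slc4a2 was low. The difference of Slc4a2 and Slc4a7 was 0.18 ± 0.65 log2 units, with 2 libraries each way (exact permutation p = 0.625), so their levels were not told apart. In CPM, which is not per length, the difference was -0.60.

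Both carbonic anhydrase genes had similar levels per length. Car2, the fast cytosolic enzyme that makes bicarbonate from carbon dioxide, had 19.1, 16.05, 26.8 and 26.5 nRPKM (22.1 ± 5.41). Car8, a family member without that catalytic activity, had 16.3, 15.9, 22.2 and 30.8 (21.3 ± 6.97). Car2 minus Car8 was 0.07 ± 0.22 log2 units (exact permutation p = 0.375, higher in 3 of 4 libraries), and in CPM, which is not per length, it was -1.58. In both genes libraries 3 and 4 lay above libraries 1 and 2, as for Slc12a2.

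Of the potassium channels, 2 of 4 reached a mean of 1 nRPKM. Kcnj15 (Kir4.2), an inward rectifier, was the third highest of the 44 genes at 56.5, 91.8, 103.5 and 104.4 nRPKM (89.1 ± 22.4), lowest in library 1. Kcnq1, a voltage-gated channel, had 1.83, 2.57, 1.89 and 1.42 (1.93 ± 0.475). Kcne3, the subunit that holds Kcnq1 open in epithelia, had 0.543, 0.459, 0.167 and 0.214 (0.346 ± 0.183), from 6 to 19 reads. Kcnn4 (KCa3.1), opened by calcium, had 1.30, 0.277, 0.211 and 0.241 nRPKM (0.507 ± 0.529) from 54, 10, 9 and 8 reads. Library 1 therefore held most of the Kcnn4 reads, and 3 of the 4 values are thin.

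Sensors of mechanical and chemical stimuli were led by Piezo1, the stretch-activated channel, at 10.8, 9.96, 10.1 and 11.5 nRPKM (10.6 ± 0.734). Its coefficient of variation of 6.92% was among the smallest of the set. P2ry2, the receptor for extracellular ATP and UTP, had 1.37, 1.93, 1.58 and 1.31 (1.55 ± 0.281). Trpv4, a calcium channel that responds to swelling, had 0.669, 0.210, 0.118 and 0.304 (0.325 ± 0.241) from 8 to 44 reads, and library 1 was highest.

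The water channel members were low and uneven. Aqp3, which passes water and glycerol and is known from basal cells of the airway, had 7.54, 4.31, 0.623 and 1.11 nRPKM (3.40 ± 3.21) from 271, 135, 23 and 32 reads. Aqp4, a water channel of airway epithelium, had 3.68, 2.88, 0.301 and 1.81 (2.17 ± 1.46) from 381, 260, 32 and 150 reads. Both genes were highest in library 1, next in library 2, then in library 4, and lowest in library 3, over ranges of 12.1-fold and 12.2-fold. Aqp1, the water channel of red cells and endothelium, had 0.0889, 0.0816, 0.0173 and 0.0445 nRPKM from 5, 4, 1 and 2 reads, at or under 3 reads in libraries 3 and 4. It lay below Aqp3 and Aqp4 in 4 of 4 libraries. Aqp3 minus Aqp4 was 0.31 ± 0.53 log2 units (exact permutation p = 0.375, higher in 3 of 4 libraries), with Aqp4 above Aqp3 in library 4, and in CPM it was -0.88.

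The summed markers of basal cells, the airway stem cells, had the same order of libraries as Aqp3 and Aqp4. The 8 genes summed to 158, 109.8, 22.2 and 51.5 nRPKM in libraries 1 to 4, with 5 of 8 at a mean of at least 1 and Dapl1 at 0 reads. Of these 5, Krt5, Krt14 and Krt17 had that order, against 3.79% of all genes tested, while Krt6a was highest in library 2 (38.1 against 36.7 nRPKM in library 1) and Krt15 was higher in library 4 than in library 2 (1.75 against 0.982). Club cell markers were highest in library 2 at 1146 and lowest in library 3 at 248. Mesothelial markers, low in sum, followed the basal order too, with 39.9, 23.05, 11.7 and 15.2. The same order held for the median deviation from the gene's mean (log2) of mesenchymal markers (0.43, 0.16, -0.80 and -0.11 in libraries 1 to 4) and of leukocyte markers (0.47, 0.40, -0.47 and -0.37), over those at a mean of at least 1 nRPKM. It held also for neuroendocrine and ionocyte markers (0.65, 0.17, -0.22 and -0.15, over 3 genes). Unlike the basal and mesothelial sums, the sums of mesenchymal, leukocyte, and neuroendocrine and ionocyte markers did not have that order. Summed mesenchymal and leukocyte markers were lowest in library 4 (508 and 53.6 nRPKM). Summed neuroendocrine and ionocyte markers were highest in library 2 (14.2 nRPKM). Singly, 3 of 7 mesenchymal markers (Col1a2, Col3a1 and Dcn), 2 of 10 leukocyte markers and 0 of 3 neuroendocrine and ionocyte markers had that order. Library 3, lowest for both water channels, was also the library with high Xist. The part of these cells, or of what sets library 3 apart, in the Aqp3 and Aqp4 values was not tested. In bulk RNA, fewer cells of a type and less RNA per cell cannot be told apart.

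Carriers of choline were led by Slc44a2. Slc44a2, a choline transporter-like protein, had 67.6, 64.5, 71.7 and 62.03 nRPKM (66.4 ± 4.16), with the smallest coefficient of variation of the 40 transport genes tested for spread, 6.26%. Slc44a1, the choline transporter of wide expression, had 10.9, 11.7, 11.03 and 14.3 (11.98 ± 1.57). Slc44a4 had 4.23, 4.83, 3.52 and 4.03 (4.15 ± 0.539). The ranges of the 3 genes did not overlap, and Slc44a2 was 16.3 ± 2.94 times as high as Slc44a4. Slc44a1 minus Slc44a2 was -2.38 ± 0.24 and Slc44a1 minus Slc44a4 was 1.33 ± 0.22 log2 units.

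Amino acid carriers included a heteromer whose subunits stood in another ratio in library 1 than in the other three. Slc3a2 (CD98), the heavy chain that brings several carriers to the membrane, had 58.2, 29.0, 28.2 and 17.5 nRPKM (33.2 ± 17.5). Slc7a5 (LAT1), its light chain for large neutral amino acids, had 8.84, 12.9, 11.6 and 8.19 (10.4 ± 2.25). Library 1 was thus the highest of the 4 for the heavy chain and second lowest for the light chain, and the ratio of Slc3a2 to Slc7a5 was 6.59 there against 2.25, 2.42 and 2.14 in libraries 2 to 4. Slc3a2 minus Slc7a5 was 1.48 ± 0.74 log2 units over the 4 libraries and 1.11 ± 0.10 without library 1. Slc7a5 was the only light chain compared with Slc3a2, so the ratio does not speak for its other carriers. Slc6a14, a carrier of neutral and basic amino acids, had 53.5, 23.5, 32.1 and 32.03 nRPKM (35.3 ± 12.8) and was also highest in library 1.

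Slc38a2 (SNAT2), a sodium-coupled carrier of small neutral amino acids, was even at 46.1, 35.9, 42.9 and 49.1 nRPKM (43.5 ± 5.66). Slc1a5 (ASCT2), a glutamine carrier, had 8.11, 12.3, 8.69 and 11.5 (10.2 ± 2.05). Slc6a20a, a proline carrier, had 0.622, 1.07, 2.52 and 1.65 (1.47 ± 0.820) from 24 to 100 reads, and it was lowest in library 1, where Slc3a2 was highest. Slc6a14 exceeded Slc6a20a by 3.88 ± 0.82 log2 units. Slc15a2 (PEPT2), which takes up dipeptides, had 4.34, 6.03, 8.12 and 10.6 nRPKM (7.28 ± 2.72), lowest in library 1 and highest in library 4.

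The metal carriers were moderate and fairly even, with coefficients of variation of 18.4% for Slc39a8 and 9.83% for Slc31a1. The phosphate carrier Slc20a1 was lower and less even (26.3%). Slc39a8 (ZIP8), a zinc and manganese importer, had 26.2, 28.2, 31.5 and 39.2 nRPKM (31.3 ± 5.74). Slc31a1 (CTR1), the copper importer, had 24.4, 26.6, 29.9 and 30.02 (27.7 ± 2.73). Slc20a1 (PiT1), a sodium-phosphate cotransporter, had 8.41, 5.37, 4.76 and 7.37 (6.48 ± 1.70). The first 2 were lowest in library 1, and Slc20a1 was highest there.

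The spread between libraries was tested for each of 13156 genes with edgeR's quasi-likelihood dispersion and Benjamini-Hochberg adjustment. Of the 40 transport genes that passed its filter on low counts, 0 were called, against 0.0152% of all genes tested, which is 2 genes, Xist (adjusted p = 0.00226) and its antisense partner Tsix (adjusted p = 0.00396), both highest in library 3. Tsix had 20.1 nRPKM there against 0.301 to 0.969 in the others, and reads of an antisense pair cannot be told apart where strand use is not given. An unadjusted p under 0.05 was found for 4 of the 40, against 5.13% of all genes. Their adjusted p in the edgeR test was 0.339 for Aqp3, 0.339 for Aqp4, 0.598 for Slc26a4 and 0.765 for Slc3a2. Aqp3 and Aqp4 ranked 16 and 17 of the 13156 genes. Kcnn4, Kcne3, Trpv4 and Aqp1 did not pass the filter.

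Without the filter, the same edgeR test called 2 of 44 transport genes, Aqp3 (adjusted p = 0.00582) and Aqp4 (adjusted p = 0.00633), and 66 of 20579 genes in all. The dispersion outliers of DESeq2 were 71 genes and also held Aqp3 and Aqp4 and no other transport gene. Without the filter and without library 3, the adjusted p of edgeR was 0.0302 for Aqp3 and 0.966 for Aqp4, and without library 2 it was 0.0496 for Aqp3 and 0.0540 for Aqp4. The Aqp4 call was thus lost without library 3 and, narrowly, without library 2. Over all edgeR settings run, with and without the filter and single libraries, the adjusted p ranged from 0.00552 to 0.904 for Aqp3 and from 4.47e-05 to 0.989 for Aqp4. The median coefficient of variation was 21.7% over the 40 transport genes tested and 20.8% over all genes tested, and the median ratio of highest to lowest library was 1.58 and 1.60. By these medians, which were not matched for level, the spread of the set was close to that of all genes tested.

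**Figure D3:**
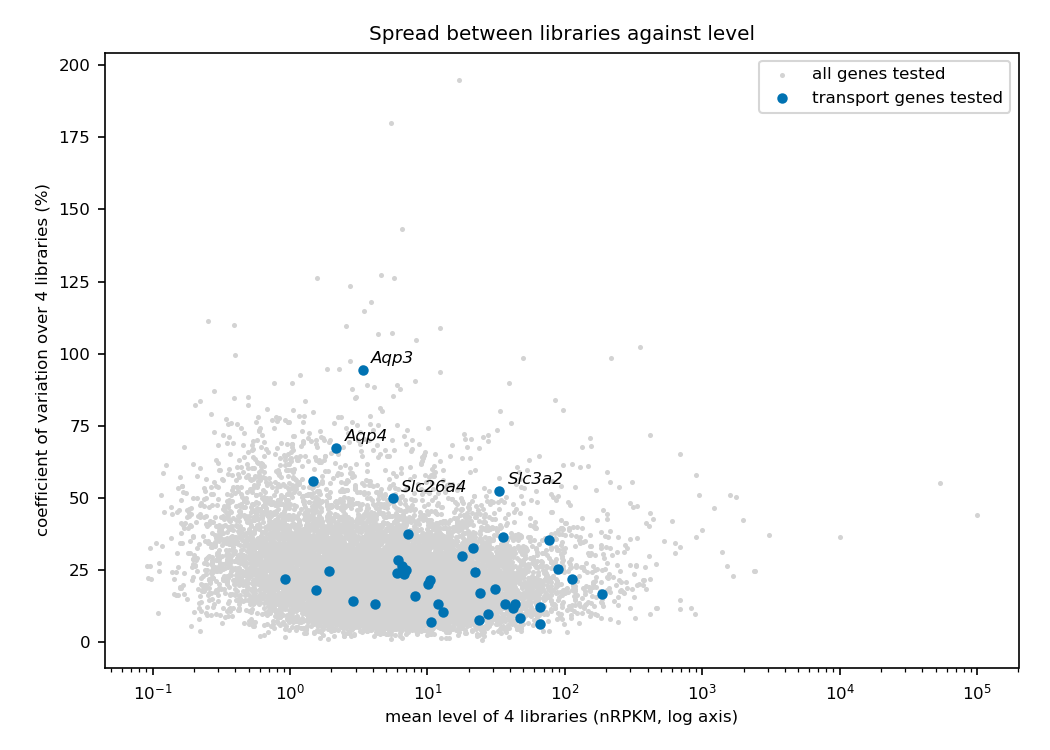
Coefficient of variation over the 4 libraries (percent, vertical axis) against mean level (nRPKM, log axis) for 13156 genes tested (grey) and the 40 transport genes among them (blue), with names for those of an unadjusted edgeR p under 0.05. Aqp3 (94.5%) and Aqp4 (67.4%) lie highest of the transport genes, and most others lie within the grey cloud.

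Library 1 was most often the lowest and library 4 most often the highest for transport genes, as they also were over all genes tested. Of the 40 genes tested, 13 (32.5%) were lowest in library 1, against 26.8% of all genes tested, and 16 (40.0%) were highest in library 4, against 27.9% of all. Lowest values fell in libraries 2 to 4 for 10, 7 and 10 genes, against 25.7%, 20.8% and 26.7% of all. Highest values fell in libraries 1 to 3 for 8, 7 and 9 genes, against 23.3%, 25.4% and 23.4% of all. The median deviation of log2(nRPKM + 1) from the mean of the 4 libraries was -0.09, -0.05, 0.05 and 0.14 for the transport genes and -0.01, 0.00, 0.02 and 0.00 for all genes tested. These differences were not tested, since the genes were chosen by name with earlier results known.

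By role, 5 of 7 chloride and anion genes were highest in library 4, against 27.9% of all genes tested. Nutrient carriers were lowest in library 1 for 6 of 13, against 26.8% of all. Both counts were picked from those of all roles and libraries, rest on few genes and were not tested. Of the sodium channel group, 0 of 4 genes were highest in library 4. Atp1b1, Slc26a9, Kcnj15, Slc12a2, Slc26a4 and Slc15a2 were among the genes lowest in library 1, which also had the lowest sum of type II markers. The part of type II marker content in these values was not tested. Scnn1a, Slc4a4, Slc4a7, Aqp3, Aqp4, Slc3a2, Slc6a14 and Slc20a1 were the 8 genes highest there.

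**Figure D4:**
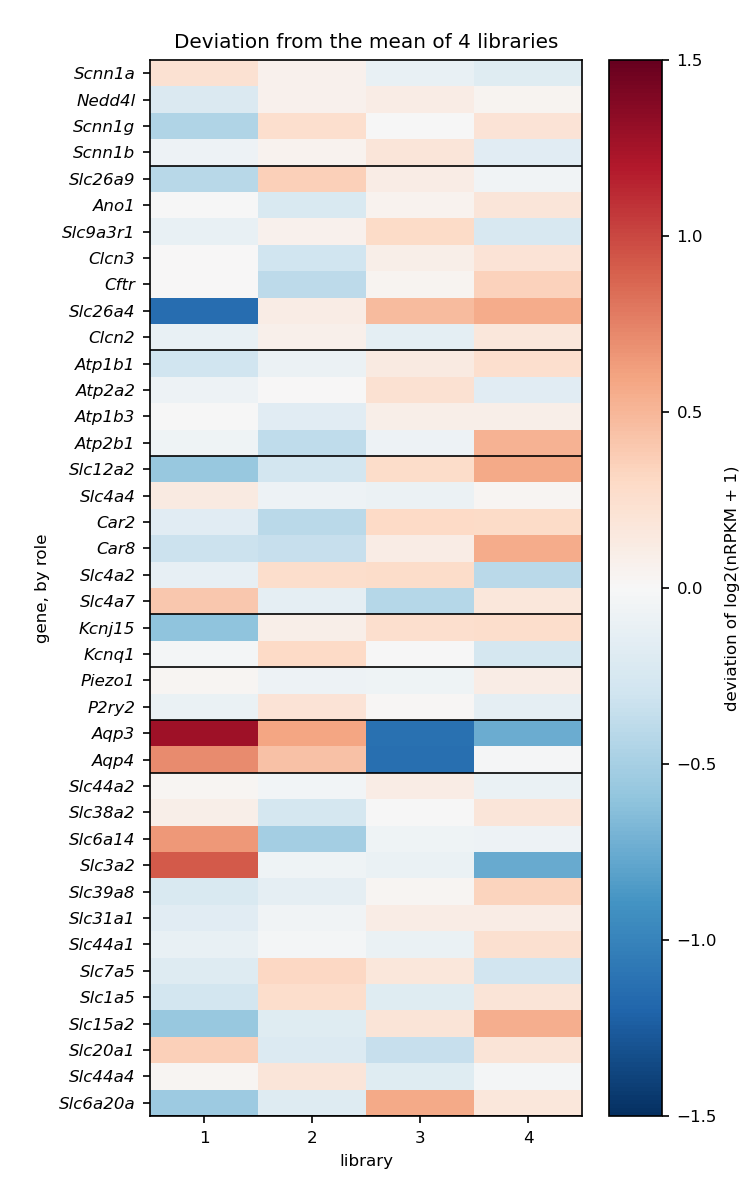
Deviation of log2(nRPKM + 1) from the mean of the 4 libraries (colour, red above and blue below) for the 40 transport genes tested, by role, in libraries 1 to 4 (columns). Aqp3 and Aqp4 are red in library 1 and blue in library 3, and Slc26a4 is blue in library 1.

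**Figure D5:**
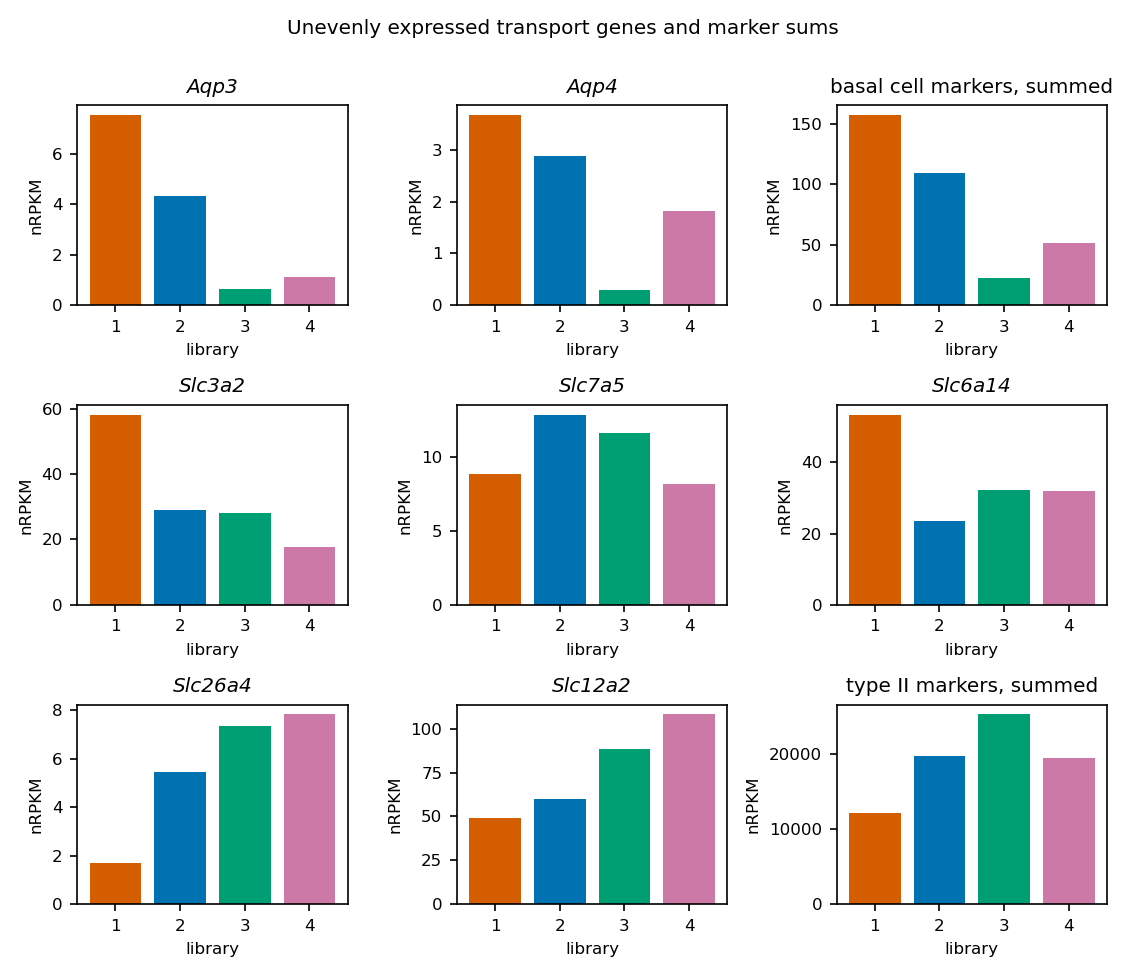
Level (nRPKM, bars from 0) in libraries 1 to 4 of 7 unevenly expressed or paired transport genes, with the summed basal cell and type II markers. Aqp3, Aqp4 and the summed basal markers share the order 1, 2, 4, 3 from high to low, while Slc3a2 and Slc7a5 differ in order.

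Other genes of the same kinds of transport were counted from lists chosen by function. Of 28 other sodium transport genes, 14 reached a mean of 1 nRPKM, led by the phosphate carrier Slc34a2 (905 ± 330), the ubiquitin ligase Nedd4 (161 ± 33.2) and the protease inhibitor Spint2 (86.7 ± 19.0; SD, n = 4 throughout). Of 26 measured chloride and anion genes, 21 did, led by Clic1 (65.6 ± 11.3), the membrane linker Ezr (59.8 ± 9.25) and Clic5 (43.5 ± 13.4), and Clca1 and Slc26a3 had 0 reads. Bicarbonate carriers and carbonic anhydrases reached that level for 5 of 17, led by Car13 (6.57 ± 1.68), Slc4a11 (4.04 ± 2.18) and Car5b (1.67 ± 0.708). In this group the transport set's own Slc4a4, Car2 and Car8 were higher than each of these 17.

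Potassium, calcium and mechanosensitive channels reached it for 13 of 28, led by Kcnk1 (39.5 ± 7.14), the calcium channel Orai1 (15.1 ± 2.91) and the ATP receptor P2rx4 (13.02 ± 1.49). Of 8 other water channels only Aqp5, listed here among the type I markers, reached it, at 175.2, 174.9, 208 and 181 nRPKM (185 ± 15.6). The cell type behind its level was not tested. Next came Aqp11 (0.863 ± 0.282) and Aqp2 (0.0578 ± 0.0413). Aqp5 was thus the predominant aquaporin, with an even level where Aqp3 and Aqp4 were uneven. Of 32 other nutrient carriers 27 reached it, led by the taurine carrier Slc6a6 (35.9 ± 1.64), the amino acid carrier Slc43a2 (29.7 ± 8.16) and Slc31a2 (20.1 ± 3.30). The spread test called 0 of the 17, 21, 7, 16, 2 and 28 genes tested in these 6 lists.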

How the data were processed

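The authors deposited, per library, a count of reads uniquely aligned to each gene model and an nRPKM value, a size-factor-adjusted RPKM, per the file headers. GSNAP and mm9 were used, per the submitters' processing notes; for versions, annotation and strand use, nothing is given in the sources used here. Entrez identifiers were paired with symbols through RefSeq GRCm38.p6, used for names and promoters only. Levels are the deposited RPKM values (mean ± SD, n = 4). Spread was tested on counts with edgeR 4.0.16 in R 4.3.3: TMM scaling, filterByExpr, an intercept-only quasi-likelihood fit, and each gene's dispersion over the trended prior against the F distribution (one-sided, Benjamini-Hochberg at 0.05). The test was tested on simulated data in which some genes were raised in 1 library. It recovered 36% of those raised 4-fold, 86% at 8-fold, 100% at 16-fold and 98% at 32-fold. Other patterns than a rise in 1 library were not simulated, so these shares do not speak for them. Aqp3 and Aqp4 ranged 12.1-fold and 12.2-fold between libraries and were not called with the filter. A gene that was not called may therefore still differ 4-fold or more between libraries. DESeq2 1.42.0 was an alternative. Related genes were compared by exact sign-flip permutation tests with a pseudocount of 1. All 44 genes are named, and of each list of other transport genes the 3 highest. Of 27 listed chloride and anion genes, 26 were measured. The genes, pairs and lists were chosen with earlier results of these data known. Depth limits precision for genes on few reads. An allele that the genotypes share, and a few marker genes, are not reported here.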

Additional observations from a re-analysis of the deposited data

Results flagged for a closer look

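Of 79 results examined over the 4 libraries (the 44 transport genes, the leading genes of the other transport lists and the summed lists), 4 had a library far from the other three, by a gap to its nearest neighbour that exceeded Dixon's critical share of the whole range. Chance gives about 1 in 20, and 6.15% of 14654 genes with more than 3 reads in every library did so. Kcnn4, the calcium-activated potassium channel gene, had 1.30 nRPKM in library 1 against 0.211 to 0.277 in the others, on 54 reads against 8 to 10. Slc34a2, the phosphate carrier of type II cells, had 413 nRPKM in library 1 against 1028 to 1116, and the summed list of other sodium transport genes, of which it is the largest part, had 829 against 1502 to 1584. Aqp2 had 0.119 nRPKM in library 2 against 0.0337 to 0.0433, at a level near 0.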

How the results depend on the processing

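The count of genes with uneven spread depended on the settings. Against 2 genes and 0 transport genes, the edgeR test without a filter on low counts gave 66 and 2, and DESeq2 dispersion outliers were 71 and 2. Leaving out a library gave 0 to 6 genes and 0 transport genes with the filter (edgeR, with 619 to 696 genes and 2 to 6 transport genes at an unadjusted p under 0.05). Without it, an alternative chosen after seeing the data, leaving out libraries 1 to 4 in turn gave 80, 18, 73 and 49 genes and 2, 1, 2 and 2 transport genes; without library 3 these held Slc26a4 (adjusted p = 0.0486) in place of Aqp4, and without library 2 Aqp4 was lost (adjusted p = 0.0540). The cause was not tested. The count of 39 genes at 1 nRPKM was 36 when asked in every library, 42 at 1 CPM, and 39 without any single library; that of 24 at 10 nRPKM was 21 in every library and 22 to 24 without a library. In log2(CPM + 1), which has no length correction, 3 differences reversed: Slc4a2 minus Slc4a7 (-0.60), Car2 minus Car8 (-1.58) and Aqp3 minus Aqp4 (-0.88). Without a single library, Slc4a2 minus Slc4a7 ranged from -0.055 (without library 3) to 0.37. Between 19 and 21 of the 22 pairs kept a single direction in every library under each alternative. The counts of genes highest or lowest in each library stayed within 1.5 times under the other scaling, pseudocount and filter. No paired analysis was possible because there is 1 group and the labels carry no replicate numbers.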
